A study of Mus musculus with 12 samples.

Results

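The genes described here are Klf15, a pair of FoxO transcription factors and the protein breakdown and stress genes that act around them in muscle. The array annotation gave a probe set to 8 of the 9 genes chosen (Klf15, Foxo1, Foxo3, Fbxo32, Ddit4, Fkbp5, Ctsl and Bnip3), and Trim63, a muscle ubiquitin ligase, was not analysed here. These 8 genes had 15 of the 22690 probe sets of the array, and 13 of the 15 were among the 13575 bright enough to be tested. By the RefSeq gene table, Klf15 lies on chromosome 6, Foxo1 on chromosome 3, Foxo3 and Ddit4 on chromosome 10, Fbxo32 on chromosome 15, Fkbp5 on chromosome 17, Ctsl on chromosome 13 and Bnip3 on chromosome 7. The question put to them was whether their RNA falls with training and whether that fall is absent with the drug.

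The study took quadriceps from C57Bl/6J mice and used 12 arrays, 3 per group. The RNA of 3 mice was pooled for an array, and a group thus stands for 9 mice. Combination mice were trained on a treadmill and received the PPARδ agonist GW1516 in a daily dose of 5 mg/kg, which activates a nuclear receptor for fatty acids, and exercise mice were trained and received vehicle. GW mice were sedentary and received the same dose of GW1516, and vehicle mice were sedentary and received vehicle, in each case for 4 weeks. The age of the mice and the time between the last run and collection are not given in the sources used here. Only the spread between pools enters the p-values, and in whole muscle fewer cells of a type and less RNA per cell cannot be told apart.

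FoxO proteins are transcription factors that insulin and IGF1 signalling keeps out of the nucleus through AKT. When they enter it, they switch on muscle ubiquitin ligases such as Fbxo32 (atrogin-1) and genes of autophagy, the breakdown of cell contents in lysosomes. Klf15, a zinc finger transcription factor, is induced by glucocorticoids in muscle, drives genes of amino acid breakdown and rises with fasting, when muscle protein is used as fuel.

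The stretches of 250 bases before the start sites of Klf15 and Foxo1 are shown because these 2 genes held the calls that passed the test. They are the plus strand of the mouse build GRCm38.p6 from RefSeq, at chr6:90462326-90462575 for Klf15 and chr3:52268087-52268336 for Foxo1, both genes lying on that strand. Capitals mark the E-box CACGTG, whose letters read the same on both strands.
Klf15: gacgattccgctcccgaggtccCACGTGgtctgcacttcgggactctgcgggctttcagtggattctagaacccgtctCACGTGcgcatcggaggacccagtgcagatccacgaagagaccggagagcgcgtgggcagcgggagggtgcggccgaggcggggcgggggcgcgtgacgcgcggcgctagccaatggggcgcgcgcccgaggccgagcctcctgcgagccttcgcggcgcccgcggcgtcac
Foxo1: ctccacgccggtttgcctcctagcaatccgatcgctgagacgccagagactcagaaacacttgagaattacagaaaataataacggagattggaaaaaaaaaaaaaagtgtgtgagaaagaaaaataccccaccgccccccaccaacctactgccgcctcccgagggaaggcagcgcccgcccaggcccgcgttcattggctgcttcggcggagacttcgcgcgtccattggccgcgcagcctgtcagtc
The Klf15 stretch held 2 E-boxes, starting at -228 and -172 from the start site, and the Foxo1 stretch held 0. Of the 7 measured genes with a promoter in the RefSeq table, 4 held an E-box (Klf15, Fkbp5, Ctsl and Bnip3), against 6.02% of all 32851 promoters in windows of the same length. The FoxO motif GTAAACA was in 0 of these 7 and in 3.17% of all promoters, and the palindromic glucocorticoid response element, given here by name alone, was in 0 of 7 and in 0.00913%. Trim63, which is not among these 7, held 1 FoxO motif, starting at -194, and 0 matches of the other motifs. Both strands were searched, the E-box was picked after the letters were seen, and a missing match says only that these letters are not in this window.

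The tissue matched its label. All 9 skeletal muscle markers had tested probe sets, and their summed signal lay between 135177 and 153908 in combination arrays, 151289 and 157815 in exercise arrays, 122468 and 155830 in GW arrays and 125751 and 128371 in vehicle arrays. Array medians were 48.4 to 57.2, and the bacterial controls had a median signal of 4.88. Immediate early genes, which switch on within minutes of activity or stress, stood apart in the exercise arrays: the sum over 8 of the 10 listed was 5602 to 6921 there, 2238 to 5261 in combination arrays, 2537 to 3038 in GW arrays and 2507 to 3356 in vehicle arrays. Fat cell markers (4 of 7 tested) summed to 2261 to 8218 in combination arrays, 2556 to 3175 in exercise arrays, 2531 to 2938 in GW arrays and 2227 to 3054 in vehicle arrays. The signal ratio of the 3' to the 5' end of β-actin, a sign of RNA length, was 0.803 to 0.841 in combination arrays, 0.763 to 0.816 in exercise arrays, 0.801 to 0.916 in GW arrays and 0.838 to 1.10 in vehicle arrays. The part of each of these in the results below was not tested.

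Klf15 was low in trained mice on vehicle and close to the sedentary level in trained mice on the drug. Its probe set had signals of 374, 403 and 299 in combination arrays, 169, 195 and 215 in exercise arrays, 294, 437 and 354 in GW arrays and 359, 351 and 425 in vehicle arrays. All 3 exercise arrays lay below the other 9, and the remaining groups overlapped one another. The means were 358 ± 53.4 in combination arrays, 193 ± 23.3 in exercise arrays, 362 ± 71.9 in GW arrays and 378 ± 40.5 in vehicle arrays (SD, n = 3 each).

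The call that passed for Klf15 was the one between the trained groups. It was 1.85-fold higher in combination than in exercise arrays, a log2 difference of 0.89 ± 0.16 (SE, 95% confidence interval 0.54 to 1.24, limma adjusted p = 0.0489). Klf15 was the 1 member probe set called there, where 0.162% of all probe sets passed. In exercise minus vehicle the log2 difference was -0.97 ± 0.16 (interval -1.32 to -0.62), but its adjusted p of 0.0815 missed the threshold of 0.05, in a comparison where 0.0147% of all probe sets and 0 of the 13 members passed. Both values lie near the threshold. Over the alternatives tried, the adjusted p ranged from 0.0182 to 0.269 between the trained groups and from 0.016 to 0.277 in exercise minus vehicle. The call between the trained groups was lost without vehicle array 1, 2 or 3 (adjusted p = 0.0541, 0.0675 and 0.0567), exercise array 1, 2 or 3 (0.167, 0.138 and 0.0977), combination array 1 or 2 (0.0652 and 0.269) or GW array 3 (0.0841). Exercise minus vehicle passed without combination array 1 (0.0363), GW array 1 (0.0318) or GW array 2 (0.0497).

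The drug alone left Klf15 with a log2 difference of -0.08 from vehicle (interval -0.43 to 0.27, adjusted p = 0.954), and training under the drug gave -0.01 from GW (interval -0.36 to 0.34, adjusted p = 0.997). Combination minus vehicle gave -0.08 (interval -0.43 to 0.27, adjusted p = 0.917). Exercise minus GW gave -0.89 (interval -1.24 to -0.54) with an adjusted p of 0.0622. The interaction subtracts GW minus vehicle from combination minus exercise and tests whether the training difference depends on the drug. It was 0.96 ± 0.23 (interval 0.47 to 1.46, unadjusted p = 0.000868), and its adjusted p of 0.451 did not pass, so that a dependence of the Klf15 response on the drug was not established over all probe sets. The mean effect of training over both drug arms, 6 arrays against 6, was -0.49 ± 0.12 (adjusted p = 0.288).

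The immediate early gene Fos, measured beside Klf15, had signals of 460, 92.5 and 39.2 in combination arrays, 900, 872 and 1127 in exercise arrays, 111, 23.6 and 37.6 in GW arrays and 49.3, 54.2 and 48.3 in vehicle arrays. The 3 arrays with the lowest Klf15 thus had the highest Fos, while combination array 1, with Fos at 460, had Klf15 at 374. The part of this difference in the Klf15 values was not tested.

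**Figure D1:**
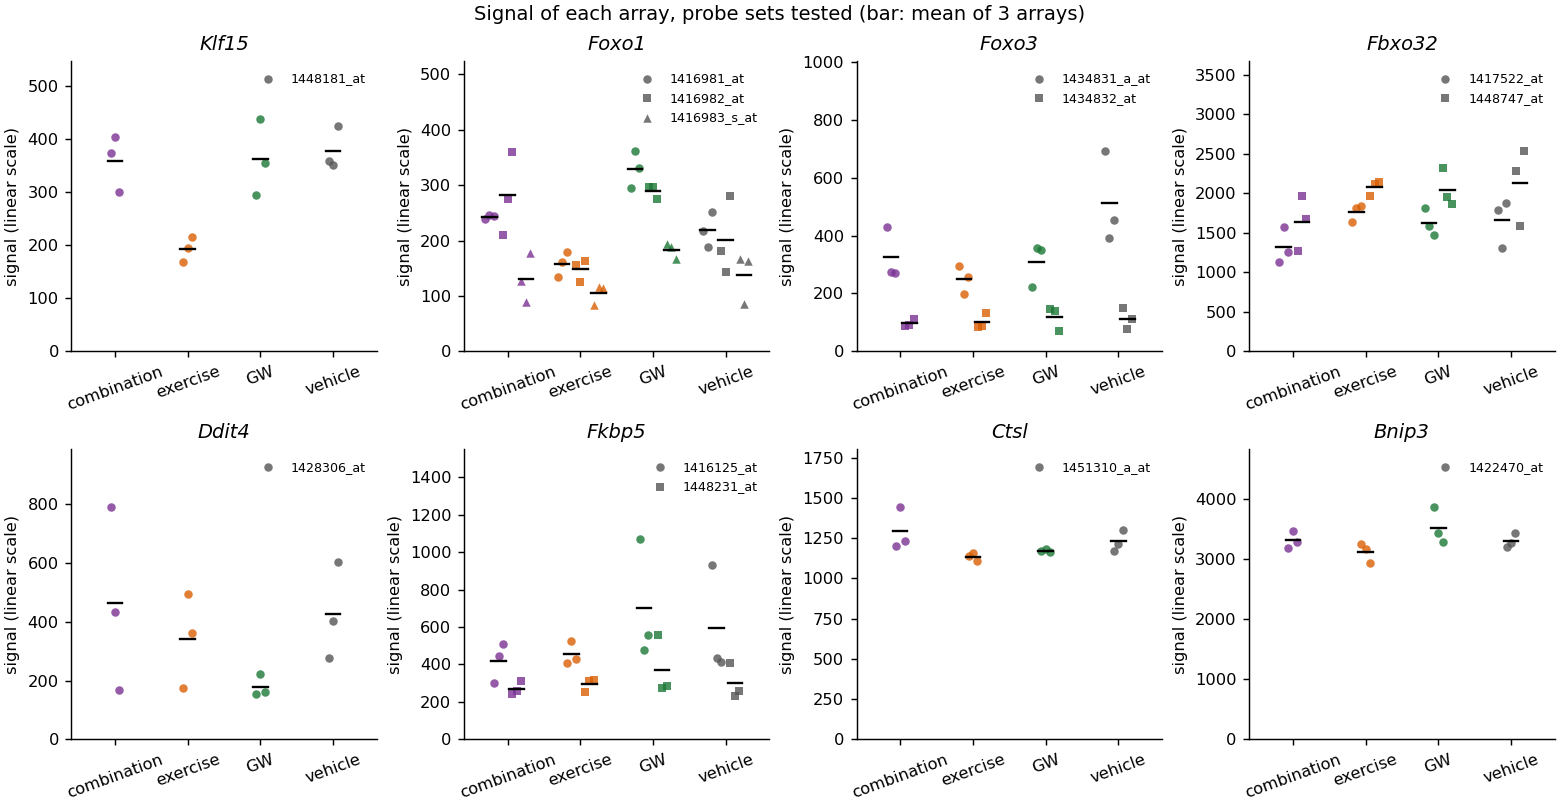
Signal on a linear scale in each array (points) with the mean of 3 arrays (bars) for the 8 genes, with marker shapes for the probe sets of a gene and the groups in the order combination, exercise, GW and vehicle. The Klf15 points of the exercise group, 169 to 215, lie below all others, and the Foxo1 points of the GW group lie highest for probe set 1416981_at.

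Foxo1, a FoxO factor whose RNA is induced by fasting in muscle, was low in trained mice on vehicle and high in sedentary mice on the drug. Probe set 1416981_at had signals of 239, 246 and 244 in combination arrays, 134, 161 and 179 in exercise arrays, 294, 361 and 331 in GW arrays and 218, 188 and 251 in vehicle arrays. The 4 groups overlapped only between combination and vehicle. Exercise arrays were at 0.478 times the GW level, a log2 difference of -1.06 ± 0.15 (SE, interval -1.38 to -0.74, adjusted p = 0.00677). It was the 1 member called in exercise minus GW, where 0.081% of all probe sets passed. The call was lost without GW array 3 (adjusted p = 0.0507). Summed endothelial markers (5 of 5 tested) were at 728 to 899 in exercise arrays, 598 to 687 in GW arrays and 752 to 816 in vehicle arrays. Schwann cell markers (2 of 6 tested) summed to 371 to 452 in exercise arrays, 374 to 423 in GW arrays and 442 to 531 in vehicle arrays. The part of either in the Foxo1 values was not tested.

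Neither difference of this Foxo1 probe set from vehicle passed: it was -0.47 ± 0.15 in exercise minus vehicle (adjusted p = 0.313) and 0.59 ± 0.15 in GW minus vehicle (adjusted p = 0.35), where 0.0958% of all probe sets and 0 of 13 members passed. Both comparisons share the vehicle arrays. Between the trained groups the difference was 0.63 ± 0.15 (adjusted p = 0.145), and all combination arrays lay above all exercise arrays. Training under the drug gave -0.43 ± 0.15 (adjusted p = 0.728), where 0% of all probe sets and 0 members passed. The mean effect of training was -0.45 ± 0.11 (adjusted p = 0.288), which missed the threshold as Klf15 did, in a comparison where 0.0147% of all probe sets and 0 members passed.

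The other tested Foxo1 probe sets come from the same source sequence, so they are not independent measurements. Probe set 1416982_at had 210, 274 and 360 in combination arrays, 156, 125 and 163 in exercise arrays, 296, 297 and 275 in GW arrays and 181, 143 and 280 in vehicle arrays. The exercise arrays lay below all combination and GW arrays and overlapped vehicle. The log2 differences were -0.39 in exercise minus vehicle (adjusted p = 0.564), 0.58 in GW minus vehicle (0.721), 0.90 in combination minus exercise (0.186) and -0.97 in exercise minus GW (0.167).

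Probe set 1416983_s_at had 127, 88.3 and 178 in combination arrays, 84.3, 116 and 114 in exercise arrays, 193, 188 and 166.1 in GW arrays and 165.7, 85.2 and 163 in vehicle arrays. Its groups overlapped except that GW lay above exercise and vehicle. It gave -0.35 in exercise minus vehicle (adjusted p = 0.695), 0.46 in GW minus vehicle (0.823) and -0.81 in exercise minus GW (0.446). The fourth Foxo1 probe set, 1456529_at, from another source sequence, had signals of 2.35 to 14.3, close to the bacterial controls, and was not tested.

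Foxo3, the family member that drives atrogin-1 and autophagy genes in muscle, was measured by probe sets that disagreed. Probe set 1434831_a_at had 428, 275 and 272 in combination arrays, 295, 200 and 258 in exercise arrays, 222, 356 and 350 in GW arrays and 692, 392 and 454 in vehicle arrays. All exercise and all GW arrays lay below all vehicle arrays, so the lower values were also seen with the drug alone. The log2 differences were -1.01 ± 0.24 in exercise minus vehicle (adjusted p = 0.225), -0.72 ± 0.24 in GW minus vehicle (0.664) and -0.65 ± 0.24 in combination minus vehicle (0.409), where 0.155% of all probe sets and 0 of 13 members passed. These comparisons share the vehicle arrays, and vehicle array 1 was the highest of all: without it the first 2 were -0.77 and -0.48. The interaction was 1.08 ± 0.35 (adjusted p = 0.703), in a comparison where 0% of all probe sets and 0 members passed.

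Probe set 1434832_at, from the same source sequence, had 87.8, 90.6 and 111 in combination arrays, 83.6, 88.7 and 131 in exercise arrays, 145, 141 and 68.7 in GW arrays and 150, 75.3 and 112 in vehicle arrays. All groups overlapped, with -0.13 in exercise minus vehicle (adjusted p = 0.921) and 0.05 in GW minus vehicle (0.985). Another, 1450236_at, had signals of 2.13 to 19.95 and was not tested.

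**Figure D2:**
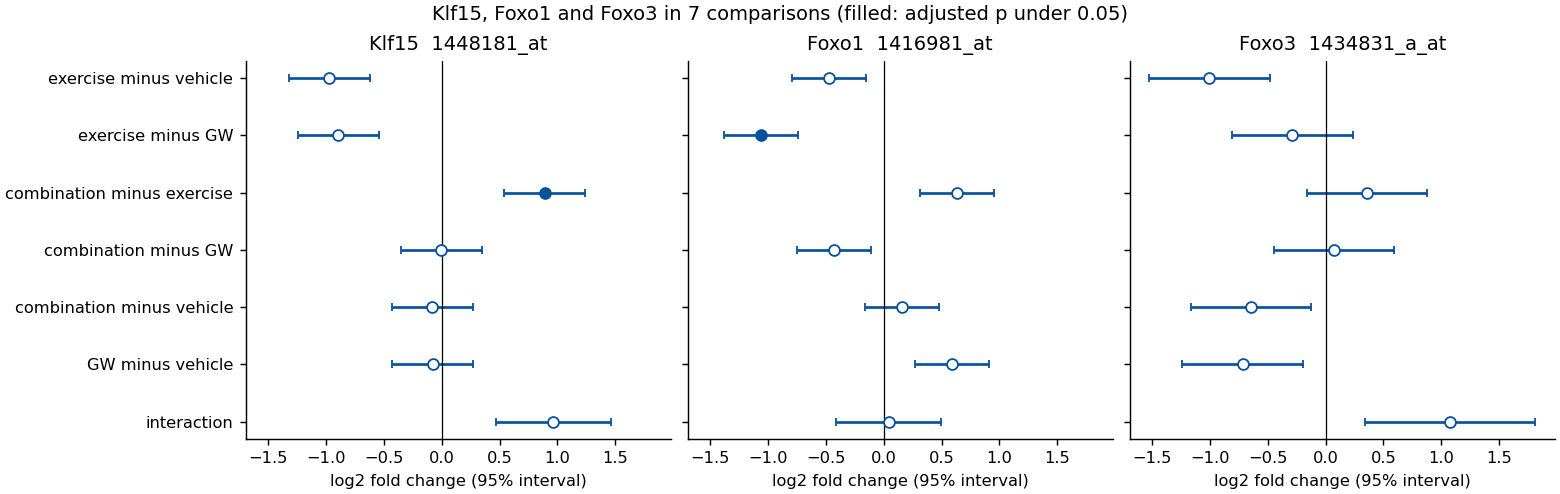
Log2 fold change with its 95% interval (x axis) for Klf15, Foxo1 and Foxo3 in 7 comparisons (rows), filled where the adjusted p passed 0.05. The filled points are combination minus exercise for Klf15 at 0.89 and exercise minus GW for Foxo1 at -1.06.

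Fbxo32, the muscle ubiquitin ligase atrogin-1 that FoxO proteins activate, was bright and did not lie lower in exercise arrays. Probe set 1417522_at had 1132, 1570 and 1260 in combination arrays, 1636, 1813 and 1833 in exercise arrays, 1810, 1578 and 1470 in GW arrays and 1783, 1307 and 1876 in vehicle arrays. Combination arrays lay below all exercise arrays, and the other groups overlapped. The log2 difference was 0.10 in exercise minus vehicle (interval -0.20 to 0.40, adjusted p = 0.837) and -0.02 in GW minus vehicle (-0.32 to 0.28, 0.987). Combination minus exercise gave -0.43 ± 0.14 (adjusted p = 0.375), a sign opposite to that of Klf15 in the same comparison, and the interaction was -0.41 (0.727).

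Probe set 1448747_at of Fbxo32 had 1270, 1960 and 1672 in combination arrays, 1969, 2113 and 2146 in exercise arrays, 2322, 1955 and 1859 in GW arrays and 2274, 1589 and 2531 in vehicle arrays. Again every combination array lay below every exercise array, with a difference of -0.37 (adjusted p = 0.533). Exercise minus vehicle gave -0.01 (adjusted p = 0.987), GW minus vehicle -0.04 (0.979) and combination minus vehicle -0.38 (0.484).

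Ctsl, the lysosomal protease cathepsin L, and Bnip3, which recruits mitochondria to autophagy, varied little. Ctsl had 1202, 1442 and 1233 in combination arrays, 1142, 1159 and 1107 in exercise arrays, 1171, 1184 and 1163 in GW arrays and 1172, 1215 and 1302 in vehicle arrays. All exercise arrays lay below all arrays of the other groups, by small amounts: -0.11 ± 0.09 from vehicle (adjusted p = 0.681), with combination minus exercise at 0.18 (0.553). Bnip3 had 3184, 3466 and 3273 in combination arrays, 3244, 3159 and 2938 in exercise arrays, 3859, 3423 and 3277 in GW arrays and 3196, 3259 and 3422 in vehicle arrays. Its exercise arrays lay below its GW arrays (-0.17, adjusted p = 0.61) and overlapped vehicle (-0.08 ± 0.08, 0.749), and GW minus vehicle was 0.09 (0.87).

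Ddit4 (REDD1), a stress and glucocorticoid-induced inhibitor of mTOR, varied widely between arrays of a group. It had 789, 434 and 168 in combination arrays, 173, 493 and 361 in exercise arrays, 154, 222 and 159 in GW arrays and 276, 401 and 603 in vehicle arrays. All GW arrays lay below all vehicle arrays, and the remaining pairs of groups overlapped. GW minus vehicle was -1.21 ± 0.46 (adjusted p = 0.716), exercise minus vehicle -0.37 ± 0.46 (0.817) and the interaction 1.51 ± 0.66 (0.727).

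Fkbp5, a co-chaperone of the glucocorticoid receptor that glucocorticoids induce, was set by single arrays. Probe set 1416125_at had 300, 443 and 509 in combination arrays, 409, 527 and 430 in exercise arrays, 1069, 478 and 557 in GW arrays and 930, 435 and 414 in vehicle arrays. GW array 1 and vehicle array 1 stood apart, and all groups overlapped. The differences were -0.28 ± 0.31 in exercise minus vehicle (adjusted p = 0.79) and 0.26 ± 0.31 in GW minus vehicle (0.919), and the first was 0.09 without vehicle array 1. Probe set 1448231_at had the same 2 arrays highest, at 558 and 410, and 233 to 319 in the other 10 arrays.

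Other genes known as glucocorticoid-responsive were read in GW array 1 and vehicle array 1, after the Fkbp5 values were seen. The metallothionein Mt1 (the brighter probe set) was at 3288 and 1080 in these 2 arrays, against 264 to 854 in the other 10. Mt2 was at 1988 and 720 in these arrays, against 190 to 751 in the others, so exercise array 1 reached the vehicle array 1 level. The cell cycle inhibitor Cdkn1a (the brighter probe set) was at 382 and 291, against 140.0 to 222 in the others. The clock gene Per1 was low there, at 283 and 206, against 289 to 437 in the others. Over the 25 tested probe sets of the list, both arrays lay above the other 10 for 3 (one each of Mt1, Cdkn1a and Glul). They lay below them for 2 (Per1 and one of Tsc22d3) and neither for 20. The share of all probe sets set apart in these 2 arrays was not counted, so these counts are a description only. Klf15 was at 294 and 359 in the same 2 arrays, and without both of them exercise minus vehicle for Klf15 was -1.01 with an adjusted p of 0.016, where 0.435% of all probe sets passed.

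**Figure D3:**
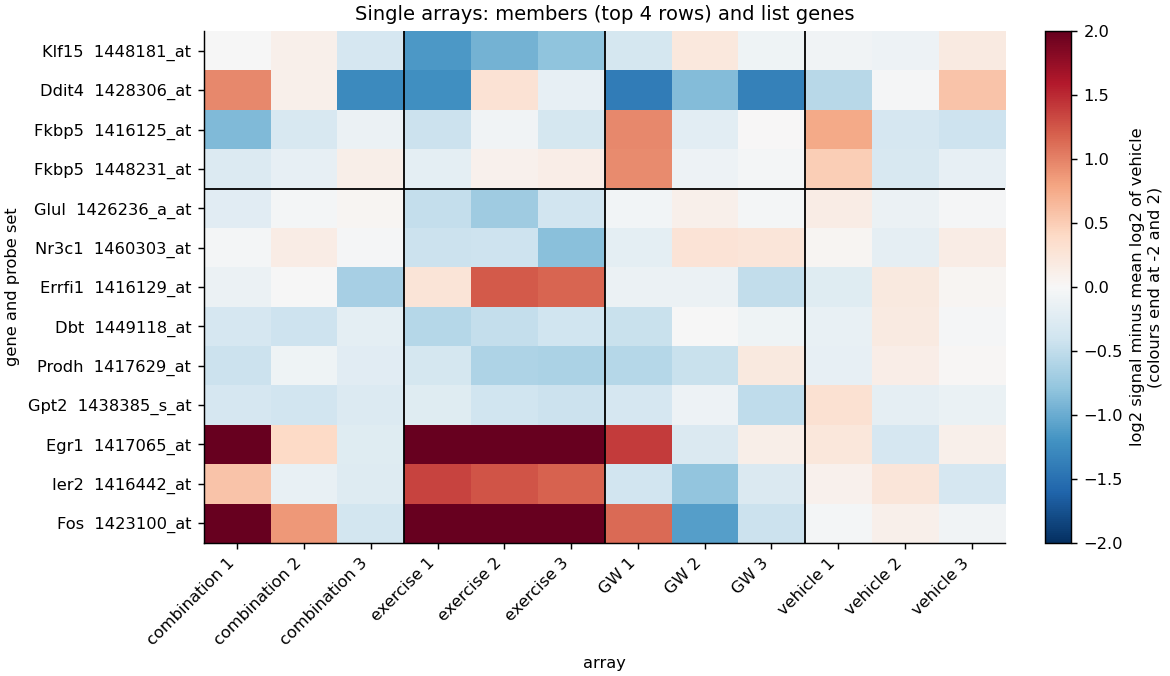
Colour gives the log2 signal minus the mean log2 signal of the vehicle arrays, in each of the 12 arrays (columns) for members (top 4 rows) and for genes of the lists (rows below). Klf15 is lowest in the 3 exercise arrays, where Fos, Egr1 and Ier2 are highest, and both Fkbp5 rows are highest in GW array 1 and vehicle array 1.

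The members were chosen with earlier results of these data known, so the counts over them are a description and no separate evidence. The 13 tested probe sets stand for 8 genes, so several share a gene. Over the 13 tested member probe sets, exercise minus vehicle was negative for 11, with a median of -0.28 against 0.01 for all probe sets. At an unadjusted p under 0.05, 3 members were lower and 0 higher, where 10.4% of all probe sets passed in either direction and 4.74% of all were lower. All exercise arrays lay below all vehicle arrays for 4 members (Klf15, 1 probe set each of Foxo1 and Foxo3, and Ctsl), and 8.56% of all probe sets did so. GW minus vehicle was negative for 6 of 13, with a median of 0.05 against -0.00 for all probe sets. All GW arrays lay above all vehicle arrays for 2 members, both of Foxo1, and below them for 2 (Foxo3 and Ddit4), against 5.54% and 5.47% of all probe sets. In exercise minus GW, 6 members lay lower without overlap, 3 of them of Foxo1, against 5.88% of all probe sets. In combination minus exercise, 4 members lay higher without overlap (Klf15, Ctsl and 2 probe sets of Foxo1), against 7.58% of all probe sets, and 2 lay lower, both of Fbxo32, against 8.21%.

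**Figure D4:**
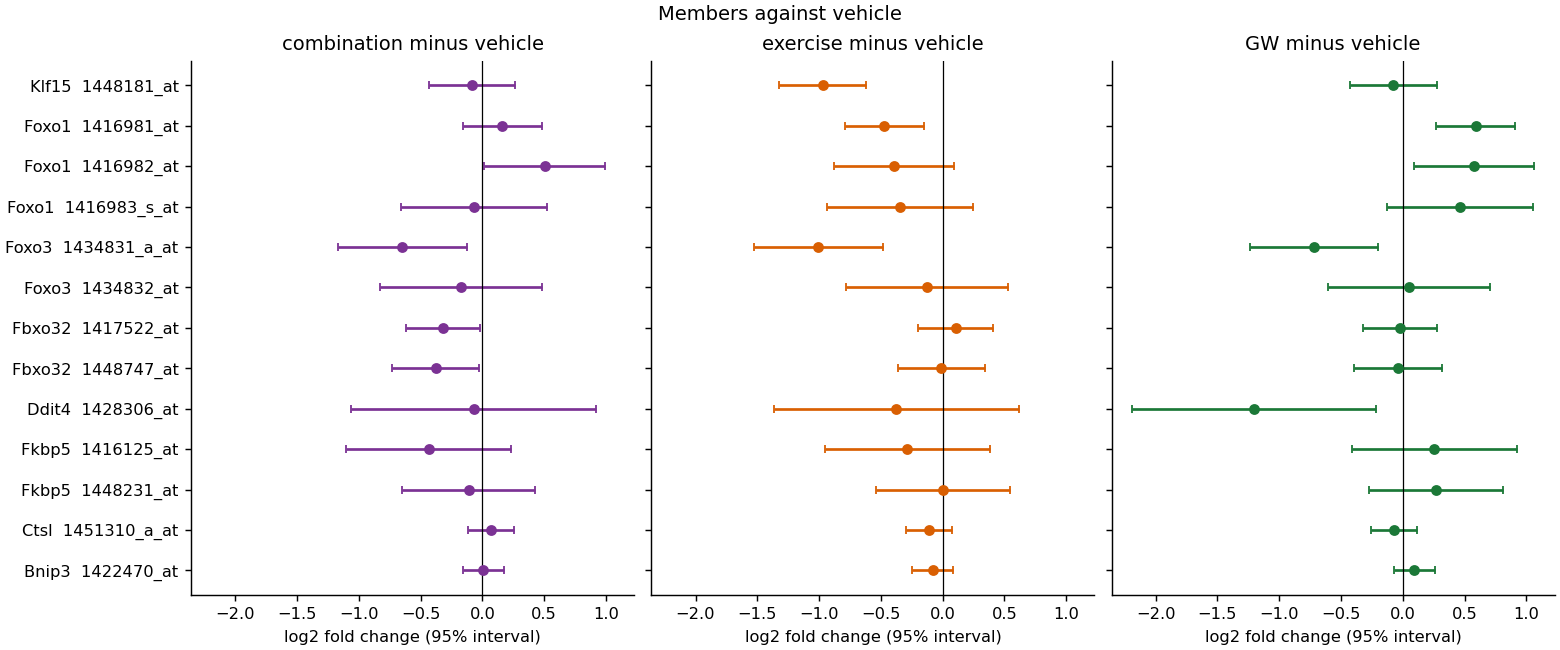
Log2 fold change with its 95% interval (x axis) for the 13 tested probe sets (rows) in combination, exercise and GW arrays, each against vehicle. Klf15 lies at -0.97 in exercise minus vehicle and at -0.08 in the other panels, Foxo1 lies below 0 with exercise and above 0 with GW, and the Foxo3 probe set 1434831_a_at lies below 0 in all 3 panels.

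Genes around these members showed no called probe set in any of 5 lists and 8 comparisons, where 0% to 0.162% of all probe sets passed. At such shares, lists of 11 to 29 tested probe sets would hold few calls or none. The lists, like the members, were chosen with earlier results of these data known, so their medians and counts are a description. Of the other ubiquitin ligases and atrophy regulators, 13 of 16 genes were measured, and the median over 23 probe sets was 0.03 in exercise minus vehicle. Smad3, which carries myostatin signals, had the smallest p there, with 1.09 ± 0.28 and 0.94 ± 0.22 in its 2 probe sets (adjusted p = 0.247 and 0.219). Usp14, a deubiquitinase of the proteasome, had -0.43 (0.41) in its probe set with the smallest p. The brightest Usp14 probe set went the other way, with 398, 333 and 439 in exercise arrays and 265, 319 and 277 in vehicle arrays. The remaining Usp14 probe set had means of 199 in exercise and 191 in vehicle arrays. Of the autophagy and lysosome genes, 14 of 16 were measured, with a median of 0.01 over 29 probe sets. Ulk1, the kinase that starts autophagy, gave 0.35 (adjusted p = 0.343), Map1lc3a 0.28 (0.473) and Atg12 0.39 (0.503). For Ulk1 and Atg12 these values belong to the probe set with the smallest p. The brighter Ulk1 probe set had means of 718 in exercise and 678 in vehicle arrays. The brightest Atg12 probe set went the other way, with means of 208 in exercise and 242 in vehicle arrays and overlapping groups.

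All 16 listed glucocorticoid-responsive genes were measured, and the median over the 25 tested probe sets, of 15 genes, was -0.00. Glul, glutamine synthetase, had 1446, 1636 and 1740 in combination arrays, 1216, 1036 and 1297 in exercise arrays, 1623, 1806 and 1635 in GW arrays and 1864, 1550 and 1665 in vehicle arrays. Its exercise arrays lay below all other arrays, with -0.52 ± 0.11 from vehicle (adjusted p = 0.131). Nr3c1, the glucocorticoid receptor itself, had 1070, 1219 and 1083 in combination arrays, 818, 830 and 615 in exercise arrays, 968, 1333 and 1301 in GW arrays and 1128, 974 and 1219 in vehicle arrays in its brightest probe set. Its exercise arrays were also below all others, at -0.56 ± 0.14 from vehicle (adjusted p = 0.244). Errfi1, a feedback inhibitor of the EGF receptor, gave 0.88 (adjusted p = 0.285).

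Of the insulin, IGF1 and FoxO pathway, 17 of 18 genes were measured and 15 tested, with a median of 0.10 over 24 probe sets. Pdk4, a FoxO and PPARδ target that blocks pyruvate use, gave 0.91 in exercise minus vehicle (adjusted p = 0.244), where Foxo1 had the opposite sign. In GW minus vehicle Pdk4 gave 1.24 (adjusted p = 0.074), with the same sign as Foxo1. Akt2 gave 0.41 in exercise minus vehicle (0.247) in its probe set with the smallest p. The brighter Akt2 probe set had means of 1294 in exercise and 1197 in vehicle arrays, and these groups overlapped. Sesn1, described below, gave -0.44 in exercise minus vehicle (0.293), with the same sign as Foxo1. All 9 amino acid breakdown genes linked to Klf15 were measured, and 8 of them were tested, in 11 probe sets, some of which share a gene. The median was -0.20 in exercise minus vehicle, with 9 of 11 negative, against a median of 0.01 and 6629 of 13575 negative over all probe sets tested. The smallest p belonged to Dbt, of the branched-chain keto acid dehydrogenase (-0.48, adjusted p = 0.297), Prodh, which starts proline breakdown (-0.54, 0.375), and Gpt2, an alanine transaminase (-0.35, 0.375). All combination arrays also lay below all vehicle arrays for Dbt (-0.32, adjusted p = 0.493) and this Gpt2 probe set (-0.33, 0.448). Of all 13575 probe sets tested, 1205 did so. Klf15 was at -0.08 in that comparison, and Prodh overlapped (-0.25, 0.722). The brighter Gpt2 probe sets had means of 1391 and 1577 in exercise, 1424 and 1514 in combination and 1602 and 1730 in vehicle arrays. In both of them, exercise and combination arrays overlapped vehicle arrays. Over the list, 8 of 11 were negative in GW minus vehicle and 5 of 11 in combination minus vehicle. Over all 13575 probe sets tested, 6810 and 6838 were negative. In combination minus exercise 10 of 11 were positive, against 6608 of 13575. In exercise minus GW 11 of 11 were negative, against 6705 of 13575.

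The 5 genes whose log2 signals ran most like Klf15 over the 12 arrays were Sesn1 (Pearson r = 0.90), Kif1b (0.89), Celf2 (0.89), Cox7a2l (0.88) and Creg1 (0.87), out of all tested probe sets with 1 symbol. They were picked for following Klf15 on these arrays, so their differences are no separate evidence. Sesn1, a FoxO and p53 target that restrains mTOR, had 279, 300 and 261 in combination arrays, 217, 215 and 222 in exercise arrays, 309, 320 and 259 in GW arrays and 291, 275 and 321 in vehicle arrays. Its exercise arrays lay below all others, at -0.44 ± 0.13 from vehicle (adjusted p = 0.293). Kif1b, a kinesin motor, had 1132, 951 and 987 in combination arrays, 681, 620 and 647 in exercise arrays, 896, 963 and 929 in GW arrays and 991, 964 and 1033 in vehicle arrays. It fell in exercise arrays relative to vehicle by 0.62 on the log2 scale (adjusted p = 0.0469) and was higher in combination than in exercise arrays by 0.65 (adjusted p = 0.00592). The Kif1b call in exercise minus vehicle was lost in 14 of 22 alternatives, with adjusted p-values of 0.00747 to 0.269, and the one between the trained groups in 1 of 22.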

How the data were processed

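RNA of 12 arrays of mouse quadriceps was analysed. The deposited table holds linear signal intensities that the authors computed with MAS5, per the submitters' processing notes (version not given in the sources used here), and the mean without the outer 2% of values was 200.1 in every array. The intensities were log2-transformed with no further scaling. Of 22690 probe sets, 64 controls were left out, and the upper 60% by mean log2 signal, 13575 with a mean above 28.4, were tested.

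In R 4.3.3 with limma 3.58.1, the 4 groups were fitted to all 12 arrays with an intensity trend (8 residual degrees of freedom). Tests were two-sided, Benjamini-Hochberg adjusted over all probe sets tested, with a threshold of 0.05 in each of 8 comparisons. The median standard error of a log2 difference was 0.21, and the number of arrays limits the precision. The procedure was tested on simulated data.

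The members and lists were chosen with earlier results of these data known. The array annotation gave 1 symbol to 20393 probe sets, several to 691 and none to 1606. All member probe sets were named, and from each list those past the threshold or else the 3 with the smallest p in exercise minus vehicle. The 5 genes most like Klf15 were ranked by Pearson r, as a description. Promoters came from RefSeq (GRCm38.p6), which held 8 of the 9 genes. Deviations from the group means were weakly correlated between arrays with the same number (-0.048 to 0.1 over 18 pairs), so no pairing was used. For vehicle with GW these correlations were 0.076, 0.1 and 0.063, against -0.078 to -0.009 for arrays of different numbers. For exercise with combination they were 0.032, 0.015 and 0.025, against -0.032 to 0.006. The other pairs of groups showed no such order. The alternatives tried were other scalings (quantile, cyclic loess), a pseudocount of 10, other filters, other variance moderation, only the groups compared, the array number as a block and each array left out. Leaving out vehicle array 1 and GW array 1 together was added after the data were seen and is counted among the alternatives.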

Additional observations from a re-analysis of the deposited data

How the results depend on the processing

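Of 1266 alternative values of the log2 differences of single member probe sets, 1208 kept their direction and their side of the threshold. Another 34 changed sign, 11 newly passed and 13 no longer passed. Genes of the lists and the genes most like Klf15 are not in these counts. With only the groups compared in the fit, the count of members called became 1 in exercise minus vehicle, against 0 with all groups, and 2 in exercise minus GW, against 1, while 0.243% and 0.236% of all probe sets passed. It was also 2 in exercise minus GW with the filter at the upper 40%, where 0.199% passed. Without each array in turn, the counts lay between 0 and 1 in exercise minus vehicle, 0 and 1 in combination minus exercise, 0 and 2 in exercise minus GW, and at 0 in the other 5 comparisons. Without vehicle array 1 and GW array 1 together, an alternative chosen after seeing the data, 1 member and 0.435% of all probe sets passed in exercise minus vehicle, and 2 members and 0.759% in exercise minus GW. The Klf15 call between the trained groups, 1 member, became 0 with no filter (adjusted p = 0.0513), with no intensity trend (0.201) and with the array number as a replicate block (0.0515). The block changed no other member call, and the fit reported used no pairing by number. The cause of these shifts was not tested.

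In exercise minus vehicle, leaving out single arrays gave Ddit4 -0.70 to 0.0561, Fbxo32 -0.0565 to 0.20 (1417522_at) and -0.21 to 0.13 (1448747_at), Fkbp5 -0.49 to 0.0929 (1416125_at) and -0.16 to 0.25 (1448231_at), and Foxo3 -0.39 to 0.11 (1434832_at). In GW minus vehicle it gave Klf15 -0.22 to 0.0637, Fbxo32 -0.18 to 0.0798 (1417522_at) and -0.24 to 0.10 (1448747_at), Fkbp5 -0.0948 to 0.63 (1416125_at) and -0.0645 to 0.52 (1448231_at), and Foxo3 -0.21 to 0.40 (1434832_at). For Klf15 it gave -0.17 to 0.0425 in combination minus vehicle and -0.15 to 0.14 in combination minus GW. Quantile normalization gave Fbxo32 0.0013 in exercise minus vehicle (1448747_at) and 0.0051 in GW minus vehicle (1417522_at). Without vehicle array 1 and GW array 1, exercise minus vehicle was 0.11 for Foxo3 (1434832_at), 0.0487 for Fbxo32 (1448747_at) and 0.0929 for Fkbp5 (1416125_at), and GW minus vehicle was 0.0285 for Klf15. Over all probe sets, counts of calls ranged from 0 to 59 in exercise minus vehicle (2 in the fit reported) and 4 to 83 in combination minus exercise (22). They ranged from 6 to 103 in exercise minus GW (11), 7 to 18 in GW minus vehicle (13) and 7 to 52 in combination minus vehicle (21). The remaining counts were 0 to 35 in combination minus GW (0), 0 to 50 for the mean effect of training (2) and 0 to 9 for the interaction (0).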
